A study of Mus musculus with 6 samples.

Results

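The 10 genes described here encode enzymes and receptors of the prostaglandin E2 route: Pla2g4a, Ptgs1, Ptgs2, Ptges, Ptges2, Ptges3, Ptger2, Ptger4, Hpgd and Ptgr1. They were picked out by symbol among 49315 mouse gene IDs in a table of raw read counts, and each symbol matched 1 gene. RNA came from immortalized mouse keratinocytes, the epithelial cells of the epidermis, in 2 groups of 3 libraries. The 3A group was the line MK-546-ha3A, which is MK-546 with human integrin α3 put back, labelled MK-/-:ha3. The Control group was MK-546 itself, labelled MK-/-, which has no integrin α3. Both lines therefore lack the mouse α3 subunit, and neither received a treatment. Both grew in low-calcium medium on collagen-coated dishes at 33 °C and 8% CO2, to between 50 and 80% confluence. Each group is a single cell line, so the presence of α3 and the descent of the line cannot be told apart. The promoter that drives human α3 is not given in the sources used here. Nothing says that the replicates were separate cultures, so each p-value sets the group difference against a spread between samples that may be technical only.

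Prostaglandins are lipid signals made from arachidonic acid. Cytosolic phospholipase A2, from Pla2g4a, frees arachidonic acid from membranes, and a cyclooxygenase turns it into prostaglandin H2. COX-1, from Ptgs1, is usually present at a steady level, whereas COX-2, from Ptgs2, is induced by growth factors, cytokines and injury. A prostaglandin E synthase then makes prostaglandin E2, which acts on the receptors EP1 to EP4, while Hpgd and Ptgr1 take part in its inactivation. In epidermis this route is known for its part in wound repair, inflammation and skin tumour growth.

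The libraries held 34177002 to 36245240 counts in 3A and 25634204 to 30919348 counts in Control. In edgeR's quasi-likelihood test, adjusted by the Benjamini-Hochberg method, 14.9% of 13704 tested genes were called at an adjusted p under 0.05, 7.52% higher and 7.39% lower in 3A. Control 1 stood apart: across genes its log2 levels correlated at 0.957 and 0.953 with Control 2 and Control 3, against 0.988 between those 2. With 3A 1, 3A 2 and 3A 3 it correlated at 0.946, 0.955 and 0.951, so it was about as like 3A as its own group. To a smaller degree 3A 1 also stood apart, at 0.985 and 0.982 with 3A 2 and 3A 3, against 0.994 between those 2. It was nearer to Control 2 and Control 3 (0.938 with each) than 3A 2 and 3A 3 were (0.910 to 0.916). Mitochondrially encoded genes took 1.24 to 1.59% of counts in 3A, against 1.17% in Control 1, 4.19% in Control 2 and 4.73% in Control 3. Itga3 had 2807, 2633 and 2064 counts in 3A, against 1007, 1220 and 1062 in Control. Those counts check neither the deletion nor the human transgene, whose reads may be counted on the mouse gene. Levels below are in CPM, counts scaled to library size. The 10 listed keratinocyte markers, among them Krt5 and Krt14, summed to 7276 to 9328 CPM in 3A and 10224 to 11856 CPM in Control. Of them 0 were higher and 3 were lower in 3A (edgeR, adjusted p under 0.05), and the part of this difference in the results below was not tested. Mast cell markers, a lineage known for prostaglandin synthesis, summed to at most 0.0287 CPM in 3A and to 0 in Control, with 4 of 5 at 0 everywhere. The macrophage and leukocyte list summed to 11.2 to 14.6 CPM in 3A and 13.98 to 23.0 CPM in Control. Most of that came from Cd68, while Adgre1 and Tyrobp were at 0. Fibroblast markers summed to 2.05 to 3.40 CPM in 3A and 2.34 to 3.36 CPM in Control, while endothelial markers summed to 0.418 to 0.946 CPM in 3A and 0.412 to 0.467 CPM in Control and melanocyte markers to 0.602 to 0.752 CPM in 3A and 1.27 to 1.67 CPM in Control.

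Of the 10 genes, 6 passed the filter on low counts and were tested: Pla2g4a, Ptgs1, Ptgs2, Ptges, Ptges2 and Ptges3. The test called 2 of them, both lower in 3A, and 0 higher, against 7.39% lower and 7.52% higher among all tested genes. The groups did not overlap for 3 of the 6, against 36.1% of all tested genes. The median log2 fold change of the 6 was -0.36, against -0.02 over all tested genes. The called genes were the cyclooxygenases, which make prostaglandin H2, while Pla2g4a and the 3 synthase genes did not pass the test. Ptgs1 only just passed (edgeR adjusted p = 0.0495). Its 95% interval of log2 fold change, -1.23 to -0.27, overlapped that of Pla2g4a, -0.96 to 0.04. Whether the steps of the route differ was not tested. Fewer cells of a type and less RNA per cell cannot be told apart in such bulk samples.

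**Figure D1:**
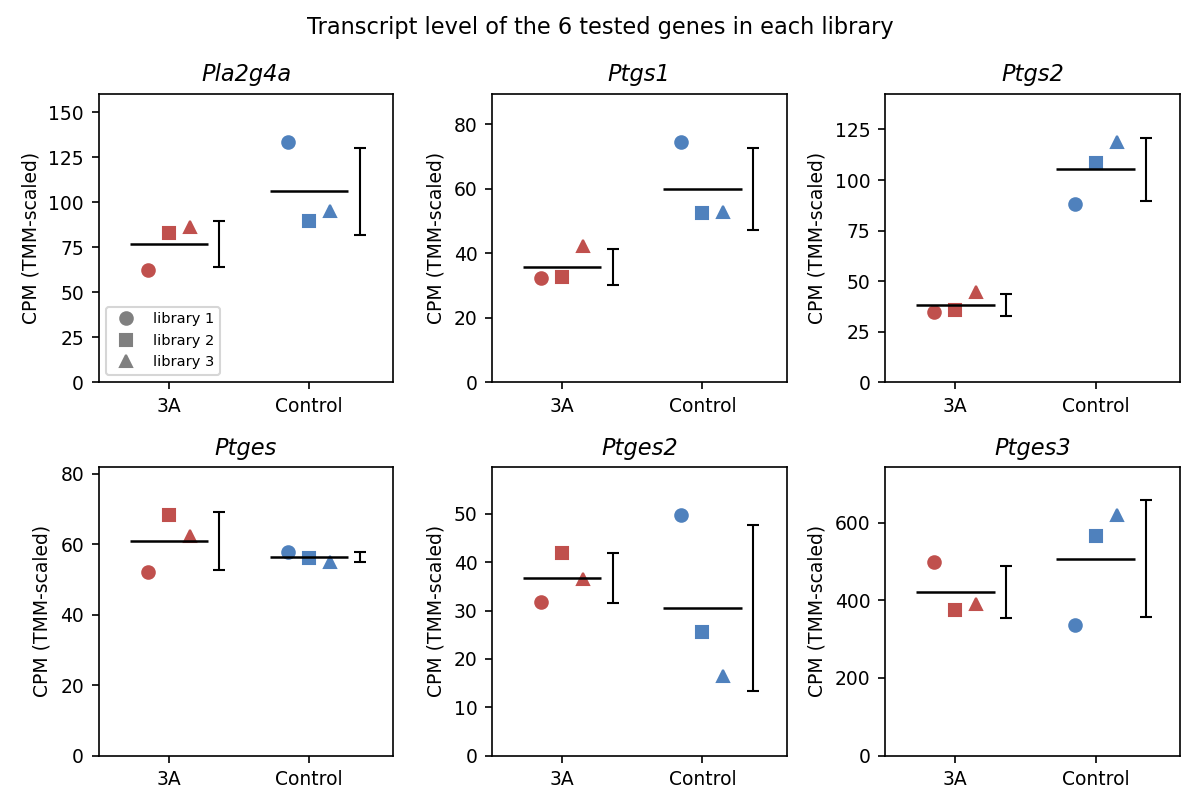
Transcript level in CPM on TMM-scaled library sizes (y axis, from 0) of the 6 tested genes in each library, 3A left of Control; lines are group means and bars at the side are ± 1 SD (n = 3 each). Ptgs2 lay between 34.6 and 44.7 CPM in 3A and between 88.3 and 119 CPM in Control, and Control 1 was the highest library for Ptgs1, Pla2g4a and Ptges2.

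Ptgs2 (ENSMUSG00000032487) lies on the plus strand of chromosome 1 at 150100031 to 150108227 (GRCm38, the assembly of mm10). It had 1209, 1334 and 1604 counts in 3A, against 2784, 3175 and 2803 in Control. Scaled for library size, these were 34.6, 35.5 and 44.7 CPM in 3A, against 88.3, 109 and 119 CPM in Control. Every 3A library lay below every Control library, and the gap between the groups was wider than the spread within either. The mean fell to 38.3 ± 5.54 CPM in 3A, against 105 ± 15.6 CPM in Control (SD, n = 3 each). On the log2 scale the difference was -1.46 (SE 0.18, 95% interval -1.89 to -1.03, edgeR adjusted p = 0.00331), that is 2.75-fold higher in Control. The call held with each of the 6 libraries left out (edgeR adjusted p from 0.000366 to 0.0274) and under the 10 other settings tried.

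Ptgs1 (ENSMUSG00000047250), the gene of the steady isoform, lies on the plus strand of chromosome 2 at 36230426 to 36252272. It had 32.2, 32.7 and 42.2 CPM in 3A, against 74.7, 52.6 and 52.8 CPM in Control. The groups did not overlap, but the Control values differed among themselves, with Control 1 far above the other two. The mean fell to 35.7 ± 5.60 CPM in 3A, against 60.0 ± 12.7 CPM in Control (SD, n = 3 each). The log2 fold change of -0.75 (SE 0.20, 95% interval -1.23 to -0.27) only just passed (edgeR adjusted p = 0.0495). It held without Control 1 (log2 fold change -0.56, edgeR adjusted p = 0.0192), where 52.3% of all tested genes were called. It was lost with any other library left out (edgeR adjusted p from 0.0872 to 0.1999), with library sizes alone in place of TMM (0.102), with no low-count filter (0.0643) and with robust quasi-likelihood (0.0529). With a term for the mitochondrial share it was -1.03 (edgeR adjusted p = 0.00557), in a fit that called 18.3% of all genes.

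**Figure D2:**
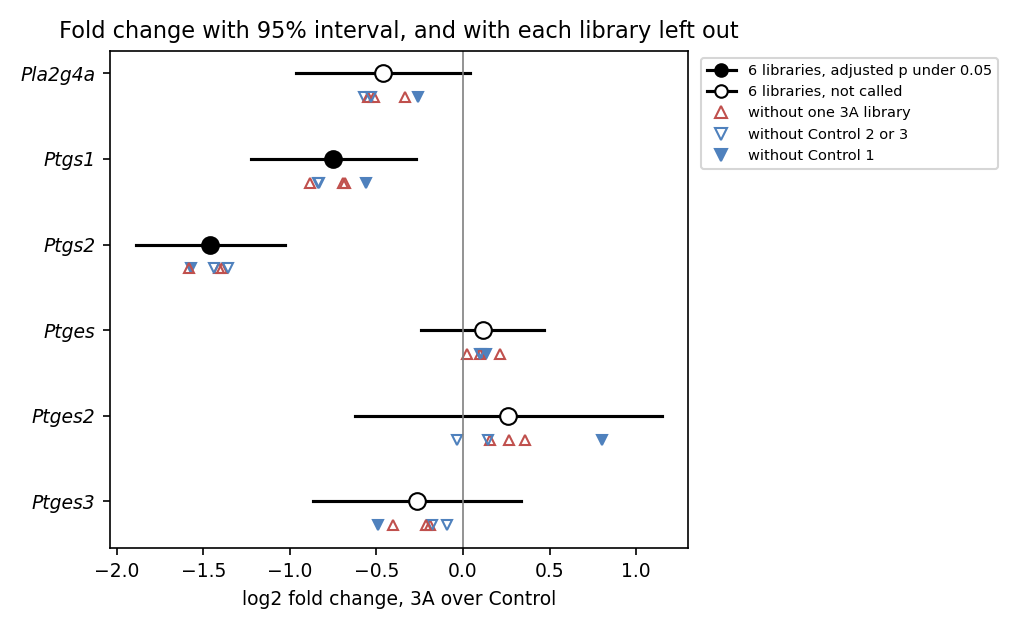
log2 fold change of 3A over Control (x axis) for the 6 tested genes, with 95% intervals as lines and filled circles for an adjusted p under 0.05; triangles below each gene show the value with 1 library left out. All values of Ptgs2 and Ptgs1 are negative, from -1.58 to -1.36 and from -0.89 to -0.56 with a library left out, whereas those of Ptges2 span -0.032 to 0.80.

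The difference in Ptgs2 was larger than that in Ptgs1, so the share of Ptgs2 among cyclooxygenase transcripts, as counts per kilobase of exon, was lower in 3A. It was 47.7, 47.9 and 47.3% in 3A, against 50.1, 63.6 and 65.7% in Control 1, 2 and 3. The 3A libraries lay within 1 percentage point of each other, and Control 1 was much nearer to them than to the other Control libraries. The mean share was 47.7 ± 0.305% in 3A and 59.8 ± 8.48% in Control (SD, n = 3 each), a difference of -12.1 percentage points. The exact two-sided permutation test gave p = 0.1, the smallest value that 3 against 3 allows, so this design cannot bring the share under 0.05. Leaving out 1 library gave differences from -17.0 points, without Control 1, to -9.19 points, without Control 3.

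**Figure D3:**
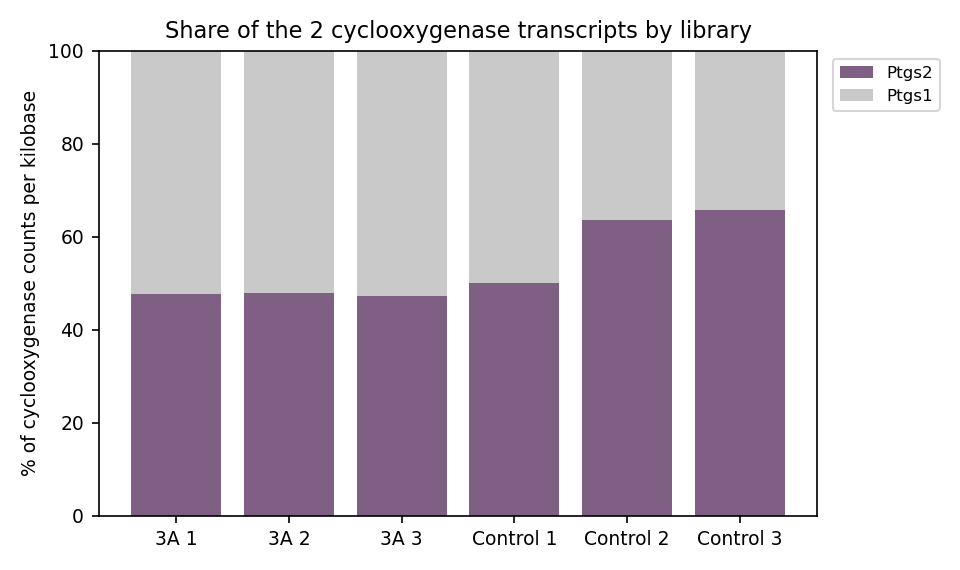
Share of Ptgs2 (dark) and Ptgs1 (light) among cyclooxygenase counts per kilobase of exon in each library (y axis, percent; 3A left of Control). Ptgs2 made up 47.3 to 47.9% in 3A, 50.1% in Control 1, and 63.6 and 65.7% in Control 2 and 3.

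The sequences before the starts of the 2 cyclooxygenase genes are shown because these were the genes that fell, and because COX-2 is the isoform known for induction. They come from RefSeq (GRCm38.p6), which held an entry for all 10 genes. Each covers the 250 bases before the annotated start, 5′ to 3′ on the gene's strand, at chr1:150099781-150100030 for Ptgs2 and chr2:36230176-36230425 for Ptgs1. Capitals mark matches, on either strand, to CRE (TGACGTCA and its shorter form CGTCA), AP-1 (TGANTCA), C/EBP (TTNNGCAA), the E-box CACGTG, the GC box (GGGCGG), the TATA box (TATAAA) and the NF-kB motif. The looser E-box CANNTG was searched too and is left in lower case.
Ptgs2: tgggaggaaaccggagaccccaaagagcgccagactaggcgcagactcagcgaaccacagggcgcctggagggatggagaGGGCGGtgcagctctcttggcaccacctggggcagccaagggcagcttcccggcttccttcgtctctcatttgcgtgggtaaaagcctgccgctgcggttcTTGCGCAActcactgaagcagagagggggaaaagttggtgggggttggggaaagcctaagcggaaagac
Ptgs1: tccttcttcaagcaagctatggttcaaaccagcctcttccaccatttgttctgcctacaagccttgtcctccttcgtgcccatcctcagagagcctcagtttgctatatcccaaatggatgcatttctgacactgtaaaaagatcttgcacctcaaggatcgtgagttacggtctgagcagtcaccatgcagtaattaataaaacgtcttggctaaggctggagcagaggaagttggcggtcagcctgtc
The Ptgs2 window held a C/EBP match, TTGCGCAA, at 69 to 62 bases before the start, a motif found in 9.56% of the 32851 promoter windows. It also held a GC box at 170 to 165 bases before the start, found in 32.7% of windows, and 2 loose E-boxes, found in 66.2%. The Ptgs1 window held 2 loose E-boxes and no match to the other motifs, which says only that these letters are not in this window. The table's window runs 50 bases past the annotated start, and after seeing the sequence the search was extended over those bases for Ptgs2. The shorter CRE form and the E-box CACGTG overlap there, at bases 14 to 18 and 17 to 22 counted from the annotated start. Of all 300-base windows, 20.8% and 7.15% hold them. The pair lies within chr1:150100036-150100060 and is in capitals below. Which start these cells use was not tested, so all positions given hold for the annotated start only.
Ptgs2 start: caccactaCGTCACGTGgagtccgc
A match of letters is a description and shows no binding.

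Upstream of the cyclooxygenases, Pla2g4a (chromosome 1, minus strand, 149829618 to 149961290) is the nearest protein-coding gene to Ptgs2, with 138740 bases between them, and is read in the opposite direction. It had 62.4, 82.6 and 85.9 CPM in 3A, against 134, 89.3 and 95.2 CPM in Control. The groups came close at 3A 3 and Control 2 without overlapping, and Control 1 stood above all. The difference did not pass (log2 fold change -0.46, 95% interval -0.96 to 0.04, edgeR adjusted p = 0.172). Of the 16 alternatives tried, only the fit with a term for the mitochondrial share called it (log2 fold change -0.77, edgeR adjusted p = 0.0212).

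Other genes within 500 kb of Ptgs2 were looked at after its value was seen. Of the 17 other genes annotated there, 7 were tested, Pla2g4a among them. Ptgs2os2, the long noncoding RNA also known as lincRNA-Cox2, lies 50815 bases beyond the end of Ptgs2 on the other strand. It had 0, 1 and 5 counts in 3A, against 25, 19 and 20 in Control. All 3A libraries lay below all Control libraries at this low level, and the fitted log2 difference was -3.69 (SE 0.74, edgeR adjusted p = 0.0184; from 0.00564 to 0.0968 with 1 library left out). Ptgs2os, which lies 67 bases before the start of Ptgs2 on the other strand, had 74, 54 and 86 counts in 3A, against 66, 43 and 64 in Control (log2 fold change -0.07, edgeR adjusted p = 0.890). The processed pseudogene Gm9687 was also lower (log2 fold change -1.78, edgeR adjusted p = 0.0327, and from 0.0151 to 0.110 with 1 library left out), at 3 to 7 counts in 3A and 13 to 15 in Control. Farther along, Odr4 and Tpr, which overlap at their ends, did not pass (log2 fold changes -0.59 and -0.15, edgeR adjusted p = 0.144 and 0.447), nor did the pseudogene Rbm3-ps (log2 fold change -0.30, edgeR adjusted p = 0.249). The strand setting of the counting is not given in the sources used here.

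None of the 3 prostaglandin E synthases passed the test. Ptges, the inducible membrane enzyme mPGES-1 that usually works with COX-2 (chromosome 2, minus strand, 30889471 to 30929863), had 52.2, 68.2 and 62.3 CPM in 3A, against 57.7, 56.2 and 55.0 CPM in Control. The 3A values spanned the Control values on both sides. Its log2 fold change was 0.11 (95% interval -0.24 to 0.47, edgeR adjusted p = 0.614), so the interval excludes a change as large as that of Ptgs2. Of the 16 alternatives, 0 called it.

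Ptges2, the membrane-associated enzyme mPGES-2 (chromosome 2, plus strand, 32395896 to 32405772), had 31.7, 42.0 and 36.5 CPM in 3A, against 49.7, 25.5 and 16.6 CPM in Control 1, 2 and 3. The Control libraries lay on both sides of all 3A libraries. This gave a log2 fold change of 0.26 (95% interval -0.62 to 1.15, edgeR adjusted p = 0.639). Without Control 1 it was 0.80 and was called (edgeR adjusted p = 0.0160), without Control 3 it was -0.032, and with a term for the mitochondrial share it was -0.40 (edgeR adjusted p = 0.171). Within Control, Ptges2 was lower in the libraries with the larger mitochondrial share, and the part of that share in its spread was not tested further.

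Ptges3 encodes p23, a cochaperone of Hsp90 that also has prostaglandin E synthase activity (chromosome 10, plus strand, 128058954 to 128077272). It had 497, 376 and 390 CPM in 3A, against 335, 565 and 619 CPM in Control 1, 2 and 3. Here Control 1 was the lowest of all libraries and the other two Control libraries the highest, the reverse of Ptges2. This gave a log2 fold change of -0.27 (95% interval -0.87 to 0.33, edgeR adjusted p = 0.476). It was -0.49 without Control 1 (edgeR adjusted p = 0.0300) and 0.29 with a term for the mitochondrial share (edgeR adjusted p = 0.230). The pseudogene Ptges3-ps had 1789, 1572 and 1522 counts in 3A and 1115, 1161 and 799 in Control, so reads may be divided between near-identical copies. The share of Ptges among synthase transcripts per kilobase was 5.44, 8.90 and 7.97% in 3A, against 8.35, 5.21 and 4.72% in Control, with overlapping groups (difference 1.34 percentage points, exact two-sided permutation p = 0.4). Leaving out 1 library gave differences from 0.613 points, without 3A 2, to 2.47 points, without Control 1, and raw counts in place of counts per kilobase gave 2.03 points.

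Divided by exon length, Ptges3 was by far the most abundant of the 10, at 190 ± 30.1 CPM per kilobase in 3A and 228 ± 68.0 in Control (SD, n = 3 each). In 3A the next levels were 15.5 ± 2.06 CPM per kilobase for Ptges, 12.0 ± 2.00 for Pla2g4a, 9.19 ± 1.44 for Ptgs1, 8.36 ± 1.21 for Ptgs2 and 7.27 ± 1.02 for Ptges2. In Control the order was 23.0 ± 3.41 CPM per kilobase for Ptgs2, 16.6 ± 3.76 for Pla2g4a, 15.5 ± 3.27 for Ptgs1, 14.3 ± 0.345 for Ptges and 6.05 ± 3.39 for Ptges2. Ptgs2 was thus the fifth of the 6 in 3A and the second in Control. In 3A, neighbours in that order differed by less than the larger of their SDs for Ptgs1 and Ptgs2 and for Ptgs2 and Ptges2. In Control they did so for Pla2g4a and Ptgs1 and for Ptgs1 and Ptges, and the other neighbours lay farther apart. The lengths are unions of annotated exons, and which transcripts these cells use was not tested.

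Of the 10 genes, the receptors and the inactivating enzymes were at or near 0. This does not cover the reductase genes Ptgr2 and Zadh2, which lie outside the 10. Those had means of 38.4 and 39.3 CPM in 3A and 17.3 and 26.9 CPM in Control. Ptger2 (chromosome 14, 44988195 to 45003820) and Ptger4 (chromosome 15, 5206661 to 5244187) encode EP2 and EP4, which raise cyclic AMP. Both were listed at 0 counts in all 6 libraries, which allows up to 0.0277 CPM in 3A and 0.0356 CPM in Control (3 counts over each group, counting error only). Other genes of the table share 4.74% of the exonic bases of Ptger2 and 16.5% of those of Ptger4, on the opposite strand, and reads there may have been left out. Hpgd, the 15-hydroxyprostaglandin dehydrogenase gene (chromosome 8, 56294585 to 56321043), had 0, 1 and 0 counts in 3A, against 0, 3 and 0 in Control. Ptgr1, a prostaglandin reductase gene (chromosome 4, 58965439 to 58987119), had 0, 0 and 2 counts in 3A, against 0, 1 and 0 in Control. No difference was detectable for these 4 genes at this depth. The other prostaglandin E2 receptor genes were also low: Ptger1, for EP1, had 12, 9 and 1 counts in 3A and 19, 21 and 22 in Control (edgeR adjusted p = 0.0936). Ptger3, for EP3, had 2, 6 and 3 counts in 3A and 13, 10 and 2 in Control and was not tested.

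Around the 10 genes, 5 wider lists were read from the same fit, to be set against the 7.52% of genes higher and 7.39% lower overall. Of 19 other prostanoid genes, 11 were tested, 4 were higher in 3A and 0 lower, with a median log2 fold change of 0.68. Slco2a1, the prostaglandin transporter that carries prostaglandins into cells, rose to 12.5 ± 1.40 CPM in 3A, against 6.43 ± 0.935 CPM in Control (SD, n = 3 each; log2 fold change 0.96, SE 0.19, edgeR adjusted p = 0.0176). Akr1b3, an aldo-keto reductase able to make prostaglandin F2α, rose by 0.72, and Slco3a1, another organic anion carrier, by 0.68. Ptgds, a prostaglandin D synthase gene, had 49, 28 and 26 counts in 3A, against 6, 1 and 0 in Control, and rose by 3.50 (edgeR adjusted p = 0.0260). Ptgr2 and Hpgds came near the threshold without passing. Ptgr2, another prostaglandin reductase, had 38.4 ± 10.1 CPM in 3A and 17.3 ± 7.28 CPM in Control (SD, n = 3 each; edgeR adjusted p = 0.0582). Hpgds, the haematopoietic prostaglandin D synthase, had 0.334 ± 0.219 CPM in 3A and 1.05 ± 0.119 CPM in Control (SD, n = 3 each; edgeR adjusted p = 0.0573). With Control 1 left out, in the fit that called 52.3% of all tested genes, 7 rose and 3 fell. Leaving out another library in its place gave at most 1 in either direction. Each of these 4 calls was lost in some of those fits. Calls over all tested genes fell too, from 2044 to between 699 and 1371 with a library other than Control 1 left out. The loss was therefore not particular to these 4 genes.

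Of 25 genes of arachidonate release and re-uptake, 12 were tested, 3 were higher and 0 lower, with a median log2 fold change of -0.33. Faah, which hydrolyses anandamide and so yields arachidonic acid, rose to 2.45 ± 0.547 CPM in 3A, against 0.548 ± 0.104 CPM in Control (SD, n = 3 each; log2 fold change 2.15, edgeR adjusted p = 0.00555), and was called with each library left out. Acsl3, an acyl-CoA synthetase gene, rose by 0.96, and Pla2g15, a lysosomal phospholipase gene, by 0.73. With Control 1 left out (52.3% of all tested genes called), 5 of this list rose and 6 fell. Leaving out another library in its place gave 1 or 2 higher and at most 1 lower. In those fits 699 to 1371 of all tested genes were called, against 2044 with all libraries. Lpcat3, which puts arachidonic acid back into phospholipids, had 63.7 ± 2.08 CPM in 3A and 45.8 ± 1.89 CPM in Control and just missed the threshold (SD, n = 3 each; edgeR adjusted p = 0.0510). Anxa1, known as an inhibitor of phospholipase A2, was abundant at 2162 ± 84.5 CPM in 3A and 2653 ± 571 CPM in Control and did not pass (edgeR adjusted p = 0.330).

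The leukotriene branch also starts from arachidonic acid. Of 17 lipoxygenase and leukotriene genes, 8 were tested, 1 was higher and 2 lower, with a median of -0.30. Ltb4r1, for the leukotriene B4 receptor BLT1, fell to 0.886 ± 0.0923 CPM in 3A, against 4.48 ± 1.41 CPM in Control (SD, n = 3 each; log2 fold change -2.33, edgeR adjusted p = 0.00437), and was called with each library left out. Cysltr1, a cysteinyl leukotriene receptor gene, had 60, 98 and 123 counts in 3A, against 20, 16 and 5 in Control (log2 fold change 2.44, edgeR adjusted p = 0.0146), and was not called without 3A 2 or 3A 3 (highest edgeR adjusted p = 0.0682). Alox5ap, which presents arachidonic acid to 5-lipoxygenase, fell by 1.31, and its call was lost without 3A 2, 3A 3, Control 2 or Control 3 (highest edgeR adjusted p = 0.113). Alox5 itself had 13, 10 and 3 counts in 3A and 5, 1 and 1 in Control and was not tested.

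Of 27 genes of cyclic AMP signalling, through which EP2 and EP4 act, 25 were tested, 4 were higher and 2 lower, with a median of 0.21. Rapgef3, for the cyclic AMP sensor Epac1, rose by 1.46 (34.3 ± 4.56 CPM in 3A, 12.4 ± 4.32 CPM in Control), Pde4d, a phosphodiesterase gene, by 1.15 and Crem, a cyclic AMP response factor gene, by 0.83. Arrb1, a β-arrestin gene, rose by 1.53 at a low level and only just passed (edgeR adjusted p = 0.0488). It had 20, 24 and 30 counts in 3A, against 11, 5 and 4 in Control. Crtc3, a CREB coactivator gene, fell by 0.85 and Prkaca, a catalytic subunit of protein kinase A, by 0.61. Prkaca also only just passed (edgeR adjusted p = 0.0483) and was called in 4 of the 10 other settings. With library sizes alone 3 were higher and 0 lower, and with upper-quartile scaling 4 and 1. With Control 1 left out (52.3% of all tested genes called), 10 rose and 5 fell. Without 3A 1 these were 1 and 2, and leaving out another library in its place gave at most 1 higher and 0 lower. Over all tested genes, 1371 were called without 3A 1 and 699 to 998 in the latter fits, against 2044 with all libraries.

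Of 32 genes known to act on Ptgs2 transcription or mRNA, 31 were tested, 7 were higher and 5 lower, with a median of -0.06. Il1a rose to 1950 ± 290 CPM in 3A, against 459 ± 79.1 CPM in Control (SD, n = 3 each; log2 fold change 2.09, edgeR adjusted p = 0.00136). Il1b rose by 3.90 from a level near 0, with 55, 76 and 63 counts in 3A, against 7, 2 and 1 in Control. The receptor gene Il1r1 rose by 1.13. Areg, an EGF receptor ligand, rose to 24.9 ± 1.57 CPM in 3A, against 4.62 ± 0.599 CPM in Control (log2 fold change 2.43, edgeR adjusted p = 0.000467), and the AP-1 gene Fos rose by 1.34. Areg, Il1a, Il1b and Fos were called with each library left out. Tia1, whose protein is known to silence Ptgs2 mRNA translation, rose by 0.90, and Ereg, another EGF receptor ligand, was the other gene higher, by 1.13, and is named after its value was seen. The EGF receptor ligand genes Hbegf and Tgfa did not pass. Hbegf had 23.0 ± 0.312 CPM in 3A and 15.8 ± 1.97 CPM in Control, and Tgfa had 69.2 ± 3.01 CPM in 3A and 56.6 ± 8.22 CPM in Control (SD, n = 3 each; edgeR adjusted p = 0.0551 and 0.226). Tnf, the gene of a cytokine known to induce COX-2, had 0, 1 and 1 counts in 3A, against 3, 8 and 1 in Control, and was not tested.

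The 5 genes lower in this list were named after their values were seen. Cebpb, a factor that binds C/EBP motifs, had 91.2, 55.2 and 40.3 CPM in 3A, against 101, 222 and 217 CPM in Control 1, 2 and 3. The groups came close at 3A 1 and Control 1 without overlapping (log2 fold change -1.53, SE 0.40, edgeR adjusted p = 0.0434), and the call was lost without 3A 2, 3A 3, Control 2 or Control 3 (highest edgeR adjusted p = 0.163). Zfp36, whose protein tristetraprolin is known to promote decay of Ptgs2 mRNA, fell by 1.15. Tnfrsf1a, Il1rn and Fosl2 fell by 0.72, 0.67 and 0.57. The NF-κB genes Nfkb1 and Rela did not pass, at 62.9 and 96.9 CPM in 3A and 85.4 and 108 CPM in Control. With library sizes alone 9 were higher and 3 lower. With Control 1 left out (52.3% of all tested genes called), 11 rose and 9 fell. Without 3A 1 these were 7 and 3, and leaving out another library in its place gave 4 and 0. All tested genes gave 1371 calls without 3A 1 and 699 to 998 in the latter fits, against 2044 with all libraries.

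**Figure D4:**
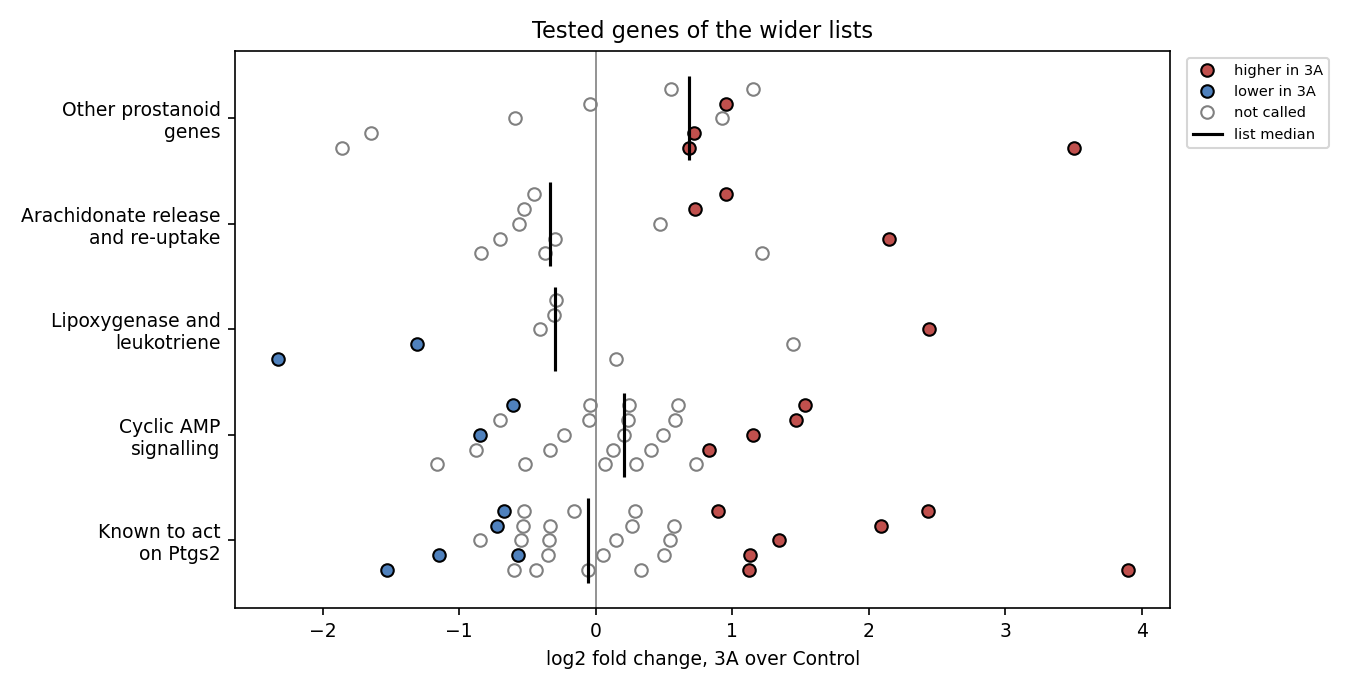
log2 fold change of 3A over Control (x axis) for each tested gene of the 5 wider lists, filled where the adjusted p was under 0.05, with a black line at each list's median; vertical scatter within a list has no meaning. The list medians lie between -0.33 and 0.68, and the genes known to act on Ptgs2 include 7 higher and 5 lower.

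Among 9617 named genes with a mean of at least 5 CPM, those with the level pattern most like that of Ptgs2 over the 6 libraries were Gpc4, St3gal6, Lamb2, Itpr2 and Slc38a2, with Pearson's r of log2 CPM from 0.995 to 0.9998. Picked for their likeness to a gene that was lower in 3A, they were lower there by construction, from -0.62 on the log2 scale for Gpc4, a glypican gene, to -1.84 for Itpr2, a calcium channel gene of the endoplasmic reticulum. The r values are the highest of many and describe 6 libraries only. For Ptges the most alike were Maco1, Marveld2, Arl2bp, Fgfbp1 and Cx3cl1 (r from 0.919 to 0.947). Like Ptges, all had 3A 2 as the highest library and 0 of them were called, which follows from how they were picked.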

How the data were processed

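The authors deposited raw read counts per Ensembl gene ID, not normalized. Per the submitters' processing notes, the tools were limma, edgeR, featureCounts and Trim Galore and the builds hg38, GRCh38 and mm10, with no version or role stated. The sources used here give neither aligner, annotation release nor strand setting. Symbols, positions and exon lengths came from GENCODE M21, which matched 49056 of 49315 IDs. Genes were filtered with filterByExpr and tested with edgeR 4.0.16 in R 4.3.3 (TMM scaling, glmQLFit, glmQLFTest, group as the only term), with Benjamini-Hochberg adjustment over 13704 genes at 0.05. Each SE is the size of the fold change (log2) over the square root of F. CPM are on TMM-scaled library sizes, and log2 CPM used a prior count of 1. The pipeline was tested on simulated data, with the same spread for every gene and no outlying library. That run does not show how the fit behaves with a library such as Control 1. Alternatives were 3 other scalings, 2 other filters, DESeq2 1.42.0, limma-voom (limma 3.58.1), a robust fit, the mitochondrial share as a covariate, replicate numbers as blocks, and each library left out. Replicate pairs differed by 15.7 to 311 in chi-square per degree of freedom, so none agreed within sampling noise. Named genes were the 10 members and up to 6 called genes with the smallest p per list, with exceptions stated; listed genes that were not called or not tested could be named with their values. Members and lists were chosen with earlier results of these data known.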

Additional observations from a re-analysis of the deposited data

How the results depend on the processing

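Over all genes, 2044 calls became 3565 by DESeq2, 288 with the replicate block, and 699 to 7168 with 1 library left out. Of the 10 prostaglandin genes, 2 were called, against 1 with library sizes alone, with no low-count filter, with robust quasi-likelihood or with the replicate block. With 1 library left out they were 1 to 4, the 4 without Control 1. Over the wider lists, 28 calls (19 higher, 9 lower) became 43 by DESeq2, 2 with the replicate block, 6 to 60 with 1 library left out, and 24 (19 higher, 5 lower) with library sizes alone. Ptges2 turned to -0.40 and Ptges3 to 0.29 with the mitochondrial share as a covariate, and Ptges2 ranged from -0.032 to 0.80 with 1 library left out, turning without Control 3. The cause was not tested. Same-numbered libraries did not deviate in the same direction (r of -0.66, -0.42 and -0.37 across genes for numbers 1, 2 and 3). What a shared number stands for is not given in the sources used here. With the replicate block, Ptgs2 passed (log2 fold change -1.46, edgeR adjusted p = 0.0423) and Ptgs1 did not (edgeR adjusted p = 0.216). The shares of Ptgs2 and Ptges kept their sign under each alternative run, with paired exact permutation p of 0.25 and 0.5, where 3 pairs allow no less than 0.25. Counting limits the receptors, Hpgd and Ptgr1, at or under 3 counts a group.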
